A study of Mus musculus with 11 samples.

Results

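Nuclei with transcripts of Slc17a6, the gene of the vesicular glutamate transporter VGLUT2, were examined in single-nucleus RNA sequencing of mouse cerebellum, brainstem of 1 hemisphere and cervical cord. They were chosen by measured values. A nucleus had to have at least 1000 genes, under 5% mitochondrial UMIs (unique molecular identifiers, each standing for 1 captured transcript) and at least 2 Slc17a6 UMIs. It also had to lack UMIs of the inhibitory genes Gad1, Gad2 and Slc6a5, of Eomes (unipolar brush cells) and of Ppp1r17 (Purkinje cells), to hold at most 1 UMI of the myelin genes Mog and Mag, and to have under 0.2% of its UMIs in the granule cell genes Gabra6, Fat2, Chn2 and Etv1. Of 189709 barcodes, 157612 passed the limits on genes and mitochondrial UMIs, 4480 of these had 2 or more Slc17a6 UMIs, and 2802 met every step. They are called Slc17a6 nuclei here. Because these genes made the choice, their levels are not results. At the threshold, 1216 of the chosen nuclei held exactly 2 Slc17a6 UMIs, and 2447 nuclei that met every other step held 1.

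All mice were males of 8 to 12 weeks carrying loxP-flanked Il12rb2 (Il12rb2fl/fl), the gene of a chain of the interleukin-12 (IL-12) receptor. The NestinCre groups were NestinCre/+Il12rb2fl/fl mice, in which the Nestin promoter drives Cre recombinase in neural precursors, so that neurons and macroglia share the deletion. Experimental autoimmune encephalomyelitis (EAE), a model of multiple sclerosis, was induced with a peptide of myelin oligodendrocyte glycoprotein in complete Freund's adjuvant and pertussis toxin, and sampled at day 10 in 4 Il12rb2fl/fl (fl EAE) and 4 NestinCre/+Il12rb2fl/fl (NestinCre EAE) samples. Mice without immunization gave 2 Il12rb2fl/fl samples (fl naive 2 and 3) and 1 NestinCre/+Il12rb2fl/fl sample (NestinCre naive 2). Replicates 1 to 3 of both EAE groups were sequenced in run 1, replicate 4 of both with fl naive 2 in run 2, and the other naive samples in run 3.

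Glutamatergic neurons that use VGLUT2 carry much of the excitatory output of brainstem, spinal cord and the deep cerebellar nuclei. Their position along the neural tube is set in development by transcription factors, many of which stay on in the adult. Hox genes mark hindbrain and cord, with higher-numbered paralogues expressed further back, and are off in midbrain and forebrain. IL-12 signals through a receptor of the Il12rb1 and Il12rb2 chains, while interferons signal through STAT factors to genes of antigen presentation and of cell-intrinsic defence.

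The chosen nuclei were deeper than the rest. Their median was 8984 to 16738 UMIs per sample, against 2414 to 3405 over all nuclei within the quality limits. Libraries held 40761007 to 86063464 UMIs, of which the Slc17a6 nuclei of a sample held 1982875 to 7265087. One barcode occurred among the chosen nuclei of 2 samples, fl EAE 2 and fl EAE 3. Neuronal genes that the choice did not use were present in every sample, with Syt1, the calcium sensor of vesicle release, at 1453 to 1836 counts for each 1000000 UMIs (CPM) and Snap25, a part of the release machinery, at 749 to 919 CPM. Slc17a7, the transporter of granule and cortical neurons, stood at 14.6 to 28.4 CPM, against a mean of 191 CPM in granule nuclei. Oligodendrocyte markers summed to 118.5 to 304 CPM over samples in fl EAE and 179 to 240.1 CPM in NestinCre EAE, and astrocyte markers to 48.1 to 99.6 CPM and 53.7 to 80.1 CPM, with Gdf10, of Bergmann glia, at 0 in 3 of the 11 samples.

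The share of Slc17a6 nuclei did not separate the genotypes. Per quality nucleus it was 2.11%, 1.26%, 2.19% and 1.71% in the samples fl EAE 1 to 4 and 1.53%, 1.56%, 2.07% and 2.56% in the samples NestinCre EAE 1 to 4. It was 2.07% and 0.915% in fl naive 2 and 3 and 1.41% in NestinCre naive 2. The highest single value was NestinCre EAE 4 (95% exact Clopper-Pearson interval 2.34% to 2.80%) and the lowest fl naive 3 (0.769% to 1.08%). These intervals cover counting error only. The EAE groups overlapped, and their means were 1.82% ± 0.428 (SD, n = 4) and 1.93% ± 0.489 (SD, n = 4), a difference of 0.112 percentage points (exact two-sided permutation p = 0.743 over 70 assignments, of which the smallest possible p is 0.0286). The same tissue pieces were pooled in each sample, so a share also moves with how much of each piece entered the library, which was not tested.

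Hox transcripts split the Slc17a6 nuclei. With at least 2 UMIs over the 39 Hox genes of the files a nucleus was called Hox-positive, and with 0 Hox-negative, and the 317 nuclei with 1 were left out of both. There were 965 Hox-positive nuclei (34.4%) and 1520 Hox-negative ones (54.2%). The Hox-positive share was 31.7%, 33.3%, 43.1% and 22.3% in the samples fl EAE 1 to 4, 38.5%, 33.5%, 30.0% and 33.1% in the samples NestinCre EAE 1 to 4, 32.9% and 51.8% in fl naive 2 and 3, and 38.7% in NestinCre naive 2. As a background, 0.215% to 0.903% of granule nuclei held 2 or more Hox UMIs at medians of 2146 to 3209 UMIs, and 3.00% to 10.5% held 1 or more. Granule cells arise in front of the Hox domain, but this set was not cleared of all glia or phagocytes. With Slc17a6 nuclei thinned to 3000 UMIs, which left out 32 shallower ones, and counted from 1 Hox UMI, the share was 22.5% ± 5.41 (SD, n = 4) in fl EAE and 25.6% ± 1.55 (SD, n = 4) in NestinCre EAE. The unthinned means of 32.6% ± 8.51 and 33.8% ± 3.53 (SD, n = 4 each) differed by 1.19 percentage points (exact two-sided permutation p = 0.857).

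**Figure D1:**
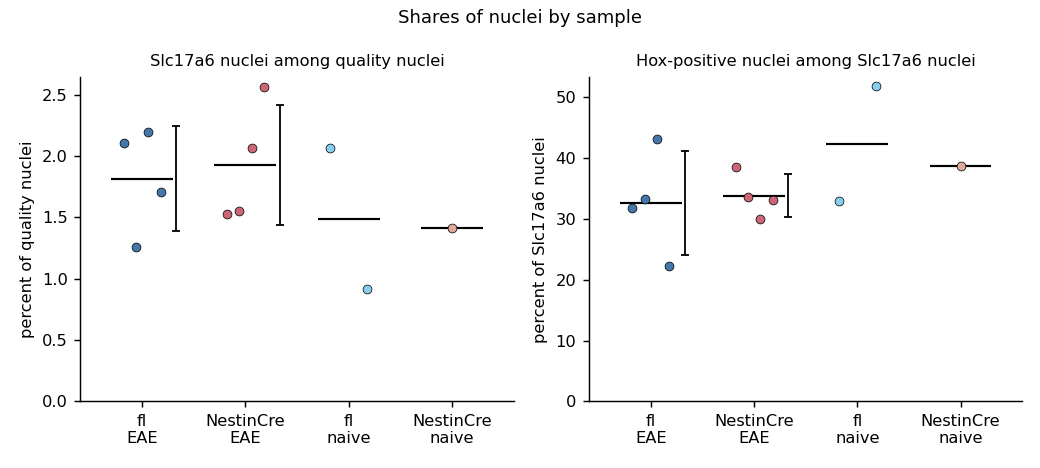
Percent of quality nuclei that were Slc17a6 nuclei (left) and percent of Slc17a6 nuclei that were Hox-positive (right), y axes from 0, 1 point per sample by group. Lines are group means and bars at the side are SDs of the groups of 4; the EAE groups overlap in both, and fl EAE 4 (22.3%) and fl naive 3 (51.8%) are the extremes of the Hox-positive share.

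Hox transcripts of the lower cord were found in few nuclei. Paralogue groups 1 to 3 were found in 32.4% of the Slc17a6 nuclei, groups 4 and 5 in 30.9%, groups 6 to 8 in 22.1% and groups 9 to 13, which belong to the lower cord, in 2.96%. By cluster, 3390 UMIs were of HoxB, 1115 of HoxC, 839 of HoxA and 419 of HoxD. Hoxb3 stood at 20.1 CPM in the lowest sample, fl EAE 4, and at 52.4 CPM in the highest, fl naive 3. Hoxb6, with a boundary in the cord, ran from 11.7 to 26.2 CPM and Hoxc4 from 8.67 to 22.4 CPM. In 565 of the 965 Hox-positive nuclei (58.5%) at least 1 UMI was of paralogue group 6 or above. CPM is not corrected for gene length and introns were counted, so these levels are compared between samples and classes and not between genes. The UMIs by cluster are totals and are not ranked, for the same reason.

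A second set of factors lay almost wholly outside the Hox-positive nuclei. Tcf7l2, a transcription factor of the Wnt pathway that stays on in adult thalamus and midbrain, had 2 or more UMIs in 734 nuclei (26.2%), of which 11 (1.5%) were Hox-positive. Tfap2d, an AP-2 factor needed for the inferior colliculus, had them in 507 nuclei, of which 4 were Hox-positive and 91.1% were among the Tcf7l2 nuclei. Foxp2, a forkhead factor of motor circuits, was found in 756 nuclei and Lhx9, a LIM factor of tectal and rhombic lip neurons, in 321. Of the Tcf7l2 nuclei 71.5% had 2 or more UMIs of Foxp2, 81.9% of Meis2 and 32.4% of Lhx9, but 0.1% of Lmx1b. The label of these nuclei names brainstem, cord and deep nuclei but no set of factors. The Tcf7l2 and Tfap2d set is therefore called here by its leading genes, and its place within these tissues was not tested. Tbr1, a factor of the medial deep nucleus, had 19 UMIs in all.

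Lmx1b and Prrxl1, factors of dorsal horn and sensory relay neurons (Prrxl1 is also named Drgx), went the other way. Lmx1b had 2 or more UMIs in 274 nuclei, of which 69.0% were Hox-positive, and Prrxl1 in 98, of which 76.5% were Hox-positive and 42.9% also had Lmx1b. Ebf1, a factor of many early-born neurons, was found in 96.9% of the Prrxl1 nuclei and 28.6% of the Tcf7l2 nuclei. Smaller sets were those of Pou4f1 (98 nuclei), Shox2 (85), Lmx1a (51) and Pax5 (49). Lmx1a and Pax5 nuclei were 3.9% and 14.3% Hox-positive, and 2.0% of the Pax5 nuclei had Tcf7l2. Of all Slc17a6 nuclei, 828 (29.6%) had neither Tcf7l2, Tfap2d or Foxp2 nor Lmx1b, Prrxl1 or 2 Hox UMIs. These shares describe which factors were found together, and a nucleus with few UMIs can miss a factor that it expresses.

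**Figure D2:**
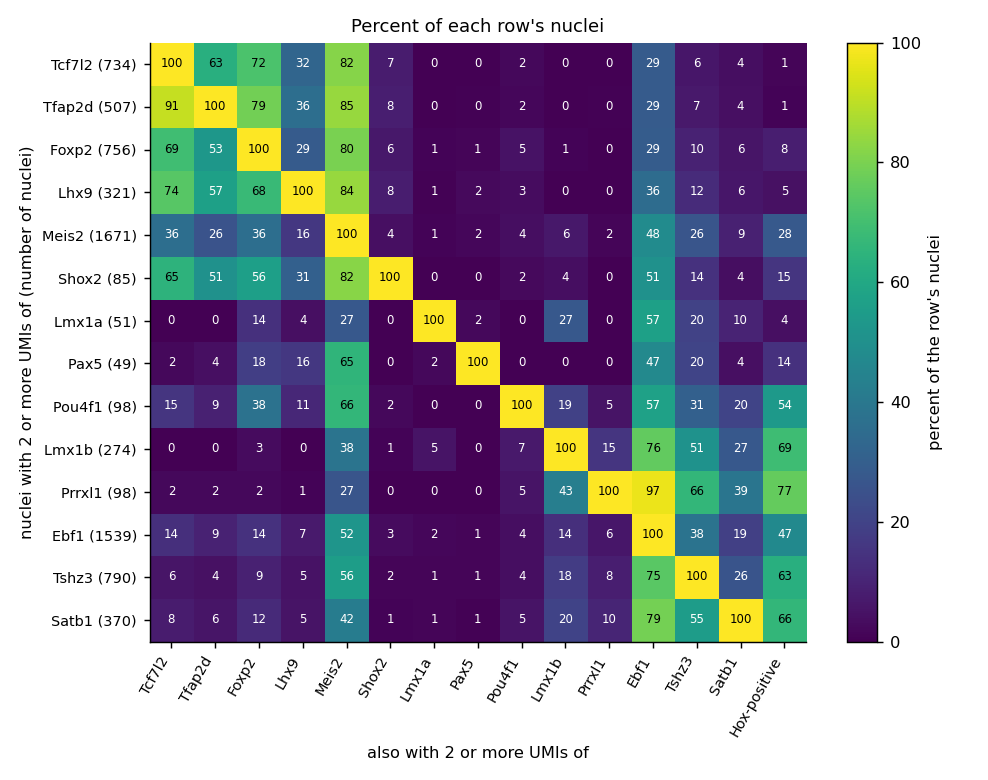
Heat map of 14 transcription factors; each cell gives, by colour and number, the percent of the row's nuclei (2 or more UMIs of the row's factor, number in brackets) that also had 2 or more UMIs of the column's factor, and the last column the percent that were Hox-positive. The block of Tcf7l2, Tfap2d, Foxp2 and Lhx9 at the upper left has at most 8% Hox-positive nuclei, while Lmx1b and Prrxl1 rows reach 69% and 77%.

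The samples differed in how much of each set they held. The share of Tcf7l2 nuclei was 28.3%, 18.6%, 20.1% and 42.9% in the samples fl EAE 1 to 4, 23.4%, 26.6%, 31.4% and 24.7% in the samples NestinCre EAE 1 to 4, 24.8% and 10.1% in fl naive 2 and 3, and 29.4% in NestinCre naive 2. Sample fl EAE 4 was highest and fl naive 3 lowest, and they held that place for Tfap2d (34.8% and 5.8%), Foxp2 (42.2% and 15.8%) and Lhx9 (27.0% and 4.3%) too. The same samples were the lowest and the highest for the Hox-positive share. Lmx1b nuclei ran from 6.4% in NestinCre EAE 2 to 15.1% in fl naive 3. The part of tissue composition in this spread was not tested.

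No regional factor was called with genotype or with EAE by the test across all genes. In the genotype comparison of the 8 EAE samples, 57 of the 109 regional factors other than Hox genes were tested and 0 were called at an adjusted p under 0.05 (edgeR quasi-likelihood test, Benjamini-Hochberg over all genes), with 4 at an unadjusted p under 0.05 and a median log2 fold change of 0.03 beside 0.0055 over all 12779 genes tested. The share of all genes called in that comparison was 0.117%. In fl EAE against fl naive, 66 factors were tested and 0 called, with 11 at an unadjusted p under 0.05, beside 1038 of all 14260 genes, and a median of -0.11 beside a median of 0.000388 over all genes, where 0.014% of genes were called. In that fit the level of fl naive came from 1 library, fl naive 2. Of the Hox genes, 12 and 17 were tested in these comparisons and 0 were called.

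Hox-positive and Hox-negative nuclei were then compared within the samples, with UMIs summed per sample and class and the sample as a block. The classes were made from the same nuclei, so the calls say which other genes went with Hox transcripts, and the Hox genes themselves were left out. Of 10497 genes tested, 1525 were called (14.5%), of which 839 were higher (7.99% of the genes tested) and 686 lower (6.54%) in Hox-positive nuclei. In Hox-positive nuclei depth was higher, with sample medians of 10771 to 18980 UMIs against 8368 to 16306. Among nuclei of at least 4000 UMIs, a floor under all of these medians, 1508 genes were called, and the part of the remaining depth difference was not tested.

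Tcf7l2 and Tfap2d fell most among the genes with at least 10 CPM. Over the 11 samples Tcf7l2 had a lowest, median and highest level of 0, 2.25 and 14.1 CPM in Hox-positive nuclei, and of 203, 319 and 464 CPM in Hox-negative ones. The classes did not overlap, with a log2 fold change of -5.98 ± 0.18 (SE; adjusted p = 2.44e-18, edgeR). Tfap2d had 0, 0.807 and 11.3 CPM in Hox-positive nuclei against 67.1, 133 and 198 CPM (log2 fold change -5.47 ± 0.24, SE; adjusted p = 6.15e-15). Nrgn, the gene of neurogranin, a calmodulin-binding protein of forebrain-type excitatory neurons, stood at 0, 3.00 and 8.91 CPM against 32.5, 56.0 and 83.4 CPM, also without overlap. Lhx9 (log2 fold change -3.26 ± 0.15, SE), Foxp2 (-2.18 ± 0.28) and the homeobox factor Shox2 (-2.03 ± 0.27) were lower in Hox-positive nuclei in 11 of 11 samples each. The range of Foxp2 over samples overlapped between the classes. Of the 85 nuclei with 2 or more Shox2 UMIs, 64.7% also had Tcf7l2, 56.5% Foxp2 and 50.6% Tfap2d, and 15.3% were Hox-positive.

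Among the higher genes, Lmx1b had 37.1, 51.0 and 64.5 CPM in Hox-positive nuclei against 8.32, 14.8 and 22.2 CPM, with no overlap (log2 fold change 1.85 ± 0.14, SE; adjusted p = 4.83e-10). Prrxl1 had 10.3, 18.4 and 31.5 CPM against 1.88, 4.05 and 7.39 CPM (2.17 ± 0.18, SE; adjusted p = 2.22e-09). Ebf1 had 1041, 1392 and 1700 CPM against 342, 425 and 917 CPM (1.62 ± 0.08, SE). Zinc finger factors of the teashirt family rose together, with log2 fold changes of 1.15 ± 0.08 for Tshz1, 1.15 ± 0.05 for Tshz2 and 1.73 ± 0.15 for Tshz3 (SE), as did the chromatin organizer Satb1 (1.60 ± 0.11). For Tshz3 the classes overlapped, since 1 of the 11 samples was higher in Hox-negative nuclei. Outside the factors, the largest rises among the called genes with at least 10 CPM in the higher class were of Fam107b (2.51 ± 0.20, SE) and Arhgap6, a GTPase-activating protein (2.19 ± 0.10).

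Of the 109 regional factors, 44 were tested, and 15 were higher and 14 lower in Hox-positive nuclei, where 7.99% of all genes tested were higher and 6.54% lower. The widely used hindbrain regulators gave 11 higher and 10 lower of 33 tested. Of 4 dorsal sensory factors tested 3 were higher and 0 lower, and of 6 cerebellar and rhombic lip factors 1, Meis1, was higher and 3, Lhx9, Lhx2 and Meis2, were lower. Their median log2 fold changes were 1.44 for the dorsal and -0.29 for the cerebellar group, beside -0.01 over all genes tested. Midbrain and isthmus, visceral and motor, and forebrain factors were too low to be tested. The filter on counts took a factor that reached its level in 1 class alone, while one low in both was not tested. These counts and medians, and those of the lists by Hox class below, are therefore no independent evidence of direction.

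**Figure D3:**
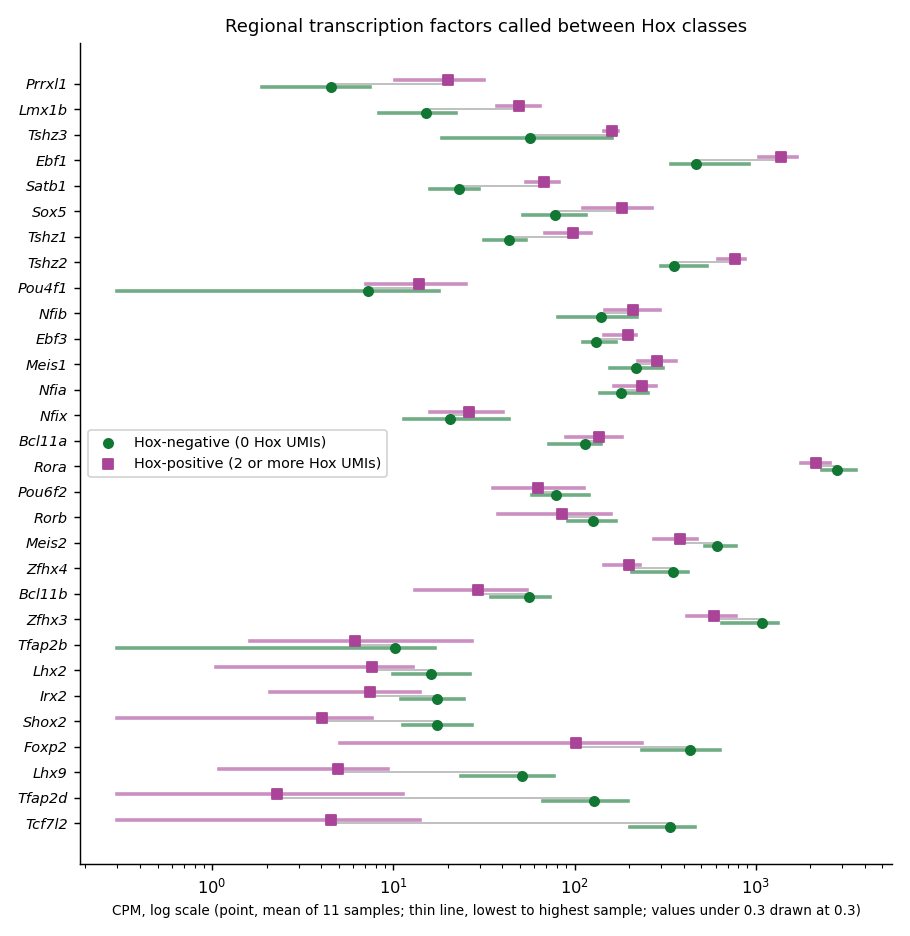
Levels in CPM (log scale) of the 29 listed regional factors called between Hox classes and of Tfap2d, which is in no list; green circles are Hox-negative and purple squares Hox-positive nuclei, points are means of 11 samples and lines run from the lowest to the highest sample. Tcf7l2 and Tfap2d at the bottom fall by more than 5 log2 units, and Prrxl1 and Lmx1b at the top rise by about 2.

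Receptor and channel genes also went with Hox class. The subunits of the GABA-A receptor, the main inhibitory receptor of the brain, split: Gabrb2 fell from a median of 646 to 182 CPM (log2 fold change -1.71 ± 0.06, SE), while Gabra5 (0.80 ± 0.08) and Gabra3 (0.51 ± 0.06) rose. Glra1, the adult alpha subunit of the glycine receptor that carries inhibition in cord and brainstem, had 273, 315 and 478 CPM in Hox-positive nuclei against 92.5, 132 and 196 CPM, without overlap (1.31 ± 0.07, SE; adjusted p = 1.28e-13). In all, 6 of 18 GABA and glycine receptor genes tested were higher and 5 lower, where 7.99% of all genes tested were higher and 6.54% lower. Of 27 glutamate genes tested 8 were higher and 5 lower, with the kainate receptor gene Grik2 (-0.72 ± 0.06) and the AMPA receptor gene Gria2 (-0.38 ± 0.04) among the lower and the NMDA receptor gene Grin3a (0.60 ± 0.06) among the higher.

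Of 40 voltage-gated channel genes tested 10 were higher and 7 lower, and the counts of this and the next lists stand beside 7.99% higher and 6.54% lower over all genes tested. Kcnh8, an Elk-type potassium channel, rose by 1.33 ± 0.09 (SE) and the calcium-activated potassium channel Kcnn2 by 0.77 ± 0.05 on the log2 scale, and Kcnc2, a channel of fast-firing neurons, fell by 0.95 ± 0.05. Of 7 neuropeptide and transmitter genes tested 3 were higher, namely the neuromedin U receptor Nmur2 (0.99 ± 0.10), the enkephalin gene Penk (0.59 ± 0.18) and Adcyap1, which encodes PACAP (0.53 ± 0.15). Survival and trophic genes gave 6 higher and 2 lower of 22 tested, among them Nrg1 (ENSMUSG00000062991), a ligand of ErbB receptors (0.64 ± 0.07), and Ntng1, a netrin-G adhesion gene (-0.52 ± 0.06). Plasticity genes gave 3 higher and 1 lower of 13, immediate early genes 0 higher and 1 lower of 2, and axon injury genes 0 higher and 2 lower of 8. The receptor, inflammatory, interferon and glucocorticoid lists had 0 called of 3, 2, 6 and 6 tested (edgeR), with 0, 1, 1 and 3 at an unadjusted p under 0.05.

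The question of the study was what loss of Il12rb2 in the neural lineage does in EAE. Il12rb2 (GRCm39 chr6:67268302-67353172, minus strand) stood at 16.1, 13.5, 7.11 and 9.57 CPM in the Slc17a6 nuclei of fl EAE 1 to 4 and at 13.2, 8.28, 15.7 and 9.50 CPM in NestinCre EAE 1 to 4. It was 12.2 and 18.7 CPM in fl naive 2 and 3 and 16.1 CPM in NestinCre naive 2. The EAE groups overlapped (log2 fold change 0.07 ± 0.24, SE; adjusted p = 0.999, edgeR). Counts were taken over the whole gene with introns, so a deletion of the loxP-flanked part need not lower them, and they do not check the labels. Il12rb1, the partner chain, had 0 to 4 UMIs per sample and was not tested, and Jak2 (-0.04 ± 0.09) and Tyk2 (0.07 ± 0.12), the kinases of the receptor, did not pass the test.

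Some interferon-stimulated genes, 6 of 21 tested, and a few genes of antigen presentation, B2m, H2-K1, H2-D1, Cd74 and Ctss, were higher in NestinCre EAE than in fl EAE. No list of antigen presentation genes was tested, and those named were grouped from among the called genes. Of 12779 genes tested 15 were called (0.117%), and all 15 were higher in NestinCre EAE. In each of the 15 the 4 NestinCre EAE samples lay above all 4 fl EAE samples, which held for 1.3% of the genes tested. A set of 11 phagocyte marker genes was also higher in NestinCre EAE, with sums of 24.6 to 58.8 CPM against 7.23 to 14.0 CPM. Without nuclei that held a UMI of these markers, B2m, H2-K1 and Cd74 kept their call, and H2-D1 and Ctss lost theirs. The part of phagocyte RNA in the values of the named genes was not tested.

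The chains of class I major histocompatibility molecules, which present peptides to CD8 T cells, were among them. B2m, the common light chain, had 7.17, 3.38, 7.34 and 3.79 CPM in fl EAE 1 to 4, 19.5, 12.9, 17.9 and 27.7 CPM in NestinCre EAE 1 to 4, and 2.02 to 3.96 CPM in the naive samples (log2 fold change 1.89 ± 0.26, SE; adjusted p = 0.00319). H2-K1, a heavy chain, had 0.597, 1.27, 3.44 and 1.26 CPM against 20.2, 5.52, 10.6 and 20.5 CPM (3.10 ± 0.43, SE; adjusted p = 0.00319), and its fl EAE values rest on 2 to 15 UMIs. H2-D1, another heavy chain, had 17.6, 19.0, 20.9 and 17.0 CPM against 33.1, 23.5, 32.5 and 50.1 CPM (0.96 ± 0.17, SE; adjusted p = 0.0292), and the NestinCre naive sample at 23.8 CPM lay above the lowest NestinCre EAE sample. Class I genes are near-identical copies of each other, so reads may be split between H2-K1, H2-D1 and others.

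Interferon-induced GTPases and antiviral genes were called too. Iigp1, an interferon-induced GTPase, was at 0 in fl EAE 1, 2 and 4 and at 1.84 CPM in fl EAE 3, against 20.6, 12.4, 11.7 and 7.02 CPM in NestinCre EAE 1 to 4 (log2 fold change 4.53 ± 0.53, SE; adjusted p = 0.000765). With fl EAE at 0 in 3 of 4 samples this fitted value is no measure of size, and it ran from 4.10 to 8.39 over the alternatives, the highest without fl EAE 3. By DESeq2 the adjusted p of Iigp1 was 0.0627. Ifit1, which binds viral RNA, had 1.19, 1.27, 2.52 and 1.26 CPM against 6.25, 5.98, 13.5 and 10.5 CPM (2.52 ± 0.36, SE; adjusted p = 0.00319). Eif2ak2, the kinase PKR that stops translation on sensing double-stranded RNA, had 3.58, 6.75, 6.19 and 4.70 CPM against 12.9, 11.5, 17.2 and 14.3 CPM (1.44 ± 0.22, SE; adjusted p = 0.0081). For Eif2ak2 the naive samples, at 11.0 to 16.6 CPM, stood with NestinCre EAE and not with fl EAE. Irgm1 (2.52 ± 0.39), Trim30a (2.11 ± 0.33), Gbp7 (2.56 ± 0.48) and Cd274, the gene of the checkpoint ligand PD-L1 (2.21 ± 0.39, all log2 and SE), were called as well. With Iigp1 and Ifit1 these are the 6 called members of the list of interferon-stimulated genes, and Eif2ak2 is in no list. Ly86, which encodes a partner of a toll-like receptor relative (2.71 ± 0.38), came in by its level.

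Cd74, the invariant chain of class II molecules (2.62 ± 0.30, SE), Ctss, a protease that processes it (2.33 ± 0.29), and Gm4951, an interferon-inducible GTPase gene (3.58 ± 0.54), were also called and are named after their values were seen. Without fl EAE 3 the fitted values of Gm4951 and Gbp7 were 6.09 and 4.08, and by DESeq2 the adjusted p of Gm4951 was 0.285. Gbp7, with an adjusted p of 0.0499, was called under 6 of 16 alternatives (edgeR and DESeq2), H2-D1 under 7 of 17, Cd274 under 9 of 15 and Eif2ak2 under 11 of 17. B2m, Cd74, Ifit1 and Ly86 were called under every alternative in which they were tested. With at least 4 Slc17a6 UMIs per nucleus they were not tested, and of the 3 called genes that were, 1 kept its call. Ly86 was also not tested without the nuclei that held a phagocyte UMI, where its groups overlapped. Among the samples left out singly, removing NestinCre EAE 3 or NestinCre EAE 4 ended the call of 5 of the 15 genes, and 24 genes were called in all without fl EAE 3 or without NestinCre EAE 2.

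**Figure D4:**
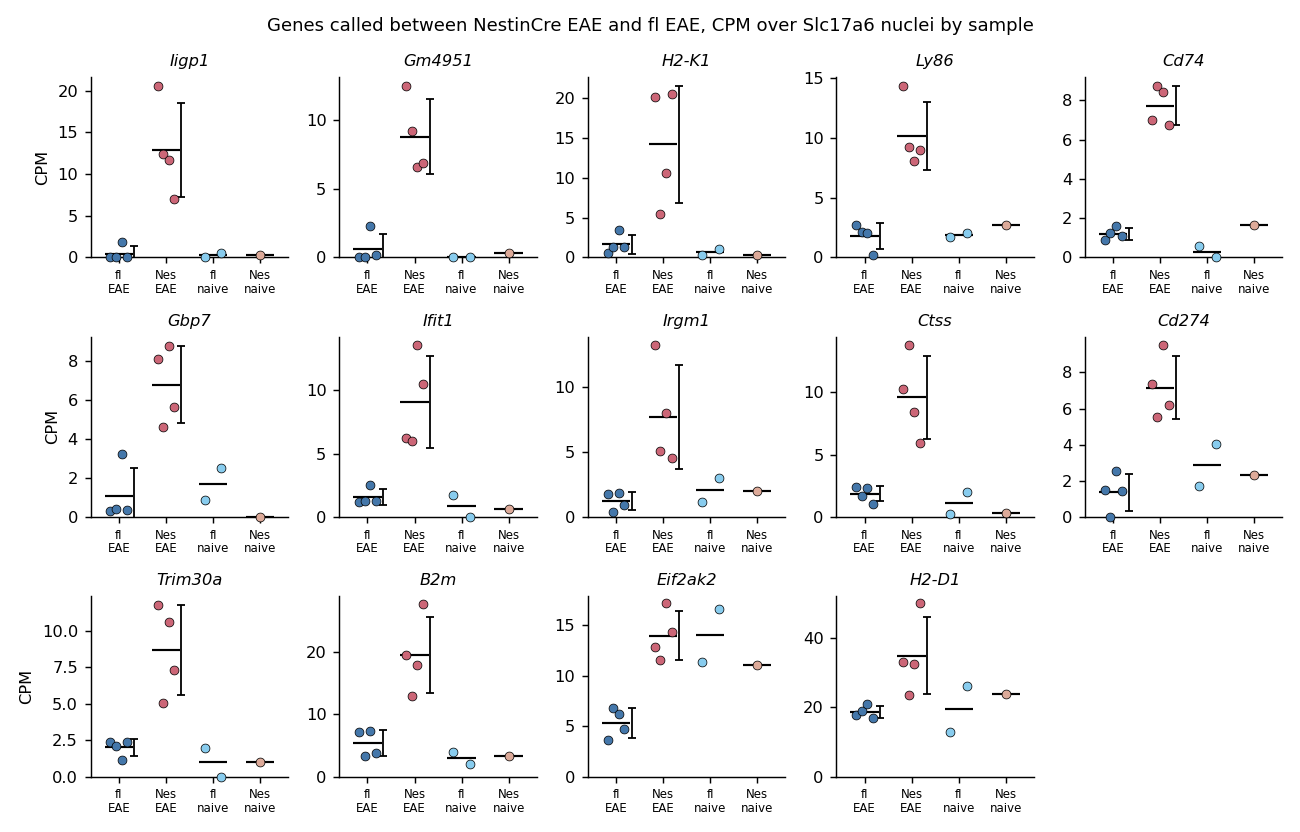
Levels in CPM (y axes from 0) of 14 genes called between NestinCre EAE (Nes) and fl EAE, 1 point per sample over all 4 groups; lines are group means and bars SDs of the groups of 4. In each panel the 4 NestinCre EAE points lie above the 4 fl EAE points, for B2m at 12.9 to 27.7 CPM against 3.38 to 7.34 CPM.

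The bases before the start of the called genes were searched for the letters that interferon-activated factors bind, because the called genes rose together. RefSeq windows (GRCm38.p6) were found for 11 of the 15 genes, and the 250 bases before each start were searched on both strands. TTTC, any 2 bases and TTTC again, the core of the interferon-stimulated response element, were found in 6 of the 11 (54.5%), namely B2m, Ctss, Gbp7, Trim30a, Irgm1 and Ifit1, and in 936 of 27025 gene symbols with a window (3.46%). TTCNNNGAA, the core of the element bound by STAT dimers, was found in 2 of the 11 (18.2%), Gbp7 and Eif2ak2, and in 2197 of all symbols (8.13%). A match is a description of letters and not of binding. The windows of 4 genes are printed 5′ to 3′ on the strand of the gene, with matches of the first motif, on either strand, in capitals. They are B2m at chr2:122147437-122147686 (plus strand), Ifit1 at chr19:34640639-34640888 (plus), Irgm1 at chr11:48871421-48871670 (minus) and Gbp7 at chr3:142530086-142530335 (plus). In B2m the match starts 139 bases before the gene, in Gbp7 53, in Ifit1 104 and 85, and in Irgm1 30 and 24, where the matches overlap.
B2m: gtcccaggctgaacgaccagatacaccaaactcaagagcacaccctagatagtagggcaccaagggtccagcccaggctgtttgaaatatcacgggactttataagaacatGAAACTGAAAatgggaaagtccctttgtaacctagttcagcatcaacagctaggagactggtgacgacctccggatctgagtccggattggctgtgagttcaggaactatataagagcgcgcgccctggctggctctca
Ifit1: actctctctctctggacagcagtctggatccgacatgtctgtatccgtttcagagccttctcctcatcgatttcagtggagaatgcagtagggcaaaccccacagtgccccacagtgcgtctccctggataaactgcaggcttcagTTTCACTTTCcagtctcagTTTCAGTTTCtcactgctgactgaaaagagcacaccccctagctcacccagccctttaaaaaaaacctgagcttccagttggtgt
Irgm1: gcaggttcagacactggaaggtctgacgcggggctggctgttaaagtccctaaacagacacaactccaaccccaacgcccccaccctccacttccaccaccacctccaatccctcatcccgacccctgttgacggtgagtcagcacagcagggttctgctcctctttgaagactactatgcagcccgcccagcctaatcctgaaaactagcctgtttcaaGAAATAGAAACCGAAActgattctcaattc
Gbp7: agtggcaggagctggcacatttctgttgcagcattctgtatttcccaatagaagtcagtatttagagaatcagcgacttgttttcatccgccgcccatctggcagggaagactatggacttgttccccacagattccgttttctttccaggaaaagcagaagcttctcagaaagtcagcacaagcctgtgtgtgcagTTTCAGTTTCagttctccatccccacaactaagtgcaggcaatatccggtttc

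As lists, 6 of 9 inflammatory genes that the study names were tested, 4 of them were higher and 0 lower, with a median log2 fold change of 1.84 beside 0.0055 over all genes, of which 0.117% were called. The study chose those genes on these samples, so their count is not independent evidence of direction. Of 49 interferon-stimulated genes 21 were tested, of which 6 were higher and 0 lower, with a median of 0.88. At an unadjusted p under 0.05, 6 of the 6 inflammatory and 19 of the 21 interferon-stimulated genes were higher and 0 lower, beside 623 of all 12779 genes in either direction. Without the nuclei that held a phagocyte UMI 17 interferon-stimulated genes were tested and 1 was higher, with a median of 0.86. The filter on counts asked for a level in as many samples as 1 group holds. A gene high in NestinCre EAE alone, such as Iigp1, could thus be tested, while one low in both groups was not. The counts and medians of these lists are therefore no independent evidence of direction. The other 10 lists had 0 called genes (edgeR). Their medians were -0.02 for survival and trophic genes, -0.03 for plasticity genes, 0.02 for glutamate genes, -0.01 for GABA and glycine receptors, 0.03 for voltage-gated channels, 0.03 for immediate early genes, -0.06 for axon injury genes, 0.26 for glucocorticoid-responsive genes, -0.17 for neuropeptides and 0.07 for the receptor list. Members of these lists at an unadjusted p under 0.05 numbered 0 and 0 (higher and lower) of 22 survival, 1 and 1 of 13 plasticity, 0 and 0 of 27 glutamate, 0 and 1 of 18 GABA and glycine, 2 and 2 of 41 channel, 1 and 1 of 11 immediate early, 0 and 2 of 13 axon injury, 1 and 0 of 8 glucocorticoid, 0 and 0 of 14 neuropeptide and 0 and 0 of 3 receptor genes.

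Members of these lists named here were chosen from lists without a call, so their values are not set against those of called genes. The largest of their values belonged to genes at mean levels of 4.05 to 8.65 CPM. They were 0.98 ± 0.64 (SE) for Tac2, 0.82 ± 0.34 for Mertk, -0.64 ± 0.27 for Btg2 and 0.52 ± 0.23 for Junb (adjusted p = 0.991 each, edgeR). Nrg1 had a log2 fold change of 0.17 ± 0.10 (SE) and its receptor gene Erbb4 of -0.08 ± 0.09. The glutamate receptor gene Grm7 had 0.02 ± 0.08 and the GABA-A receptor gene Gabrg3 -0.23 ± 0.08 (adjusted p = 0.782). For the potassium channel gene Kcnmb2 the value was 0.41 ± 0.13 (adjusted p = 0.762). Hsph1, a heat shock gene, had -0.48 ± 0.13 (adjusted p = 0.412) and Gap43, a growth cone gene, -0.22 ± 0.07 (adjusted p = 0.782). The glucocorticoid-responsive genes Sgk1 and Fkbp5 had 0.03 ± 0.09 and 0.31 ± 0.15.

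Some markers of phagocytes had higher summed levels in NestinCre EAE. Of 13 phagocyte markers 2 were tested and 0 called, P2ry12 with a log2 fold change of -0.08 ± 0.11 and Cx3cr1 with -0.14 ± 0.15 (SE), and the sum over all 13 was 110 to 149 CPM in fl EAE and 120 to 166 CPM in NestinCre EAE, most of it P2ry12. The 11 markers other than P2ry12 and Cx3cr1 summed to 10.5, 8.02, 14.0 and 7.23 CPM in fl EAE 1 to 4, 58.8, 29.4, 39.1 and 24.6 CPM in NestinCre EAE 1 to 4, 7.36 and 5.55 CPM in fl naive 2 and 3 and 10.7 CPM in NestinCre naive 2. None was at 0 in all 11 samples, and Chil3, at 0 in 3, was at 0 most often. T-cell markers summed to 16.6 to 37.4 CPM in fl EAE and 17.5 to 27.9 CPM in NestinCre EAE, most of it Skap1, while Cd8a was at 0 in 11 samples, Cd3g in 10, Cd3d in 9 and Trac in 8. Of the Slc17a6 nuclei 7.43% to 14.8% in fl EAE and 18.1% to 39.6% in NestinCre EAE held a UMI of one of the 11 phagocyte markers. The 7 endothelial and leptomeningeal markers summed to 2.99 to 6.33 CPM in fl EAE and 5.92 to 11.8 CPM in NestinCre EAE, with 1, Pecam1, at 0 in no sample, and over all barcodes to 11.4 to 14.2 CPM against 18.1 to 22.4 CPM. Their part in the values of the called genes was not tested.

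When these 465 nuclei were left out, an alternative chosen after the data were seen, 5 genes were called, among them B2m, H2-K1, Cd74 and Ifit1. Of the 15 genes 10 were still tested, and 5 of them lost their call, with log2 fold changes there of 2.18 for Irgm1 and 1.52 for Eif2ak2 (adjusted p = 0.0651 each, edgeR), 2.27 for Ctss (adjusted p = 0.167), 0.89 for H2-D1 (adjusted p = 0.214) and 2.44 for Gbp7 (adjusted p = 0.233). With all nuclei these values were 2.52, 1.44, 2.33, 0.96 and 2.56. B2m had 6.16, 3.67, 8.16 and 2.98 CPM over the remaining nuclei of fl EAE 1 to 4 and 18.0, 12.4, 16.8 and 29.8 CPM over those of NestinCre EAE 1 to 4, again without overlap. Without the phagocyte-marked nuclei Ly86 fell under the level for testing, with 4.79, 2.82, 0 and 2.17 CPM in NestinCre EAE 1 to 4 against 0.199 to 1.38 CPM in fl EAE, so that the groups overlapped there. Phagocyte RNA in the same droplets that no marker UMI shows is not removed by this step, and its part in the values was not tested.

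The genotype comparison was repeated within the Hox classes. In Hox-negative nuclei 5 of 11126 genes were called (0.0449%), among them B2m (log2 fold change 2.13 ± 0.30, SE; adjusted p = 0.00493, edgeR), Nlrc5, the activator of class I genes (2.87 ± 0.43), Stat2 (0.84 ± 0.14) and Cd74 (2.65 ± 0.44). In Hox-positive nuclei 0 of 10500 genes were called (0%; edgeR, 410 at an unadjusted p under 0.05), and B2m had 1.44 ± 0.38. The difference between the classes was called for 0 of 11456 genes (0%; edgeR, 436 at an unadjusted p under 0.05, and 0 by DESeq2). For B2m it was -0.45 ± 0.41 (Hox-positive less Hox-negative), so no difference between the classes was shown.

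The called genes were also read in 2 other sets of nuclei in the same libraries. Inhibitory nuclei had no Slc17a6 UMI and at least 2 UMIs of Gad1, Gad2 or Slc6a5. Granule nuclei had at least 0.2% of UMIs in the granule genes, no Slc17a6 or inhibitory UMI and at most 1 Mog or Mag UMI. No further step took glia or phagocytes out of them. Oligodendrocyte markers summed there to 868 to 1692 CPM in fl EAE and 1142 to 1584 CPM in NestinCre EAE. The part of glial RNA in the values of granule nuclei was not tested. The samples are the same, so these are values side by side. In inhibitory nuclei 34 of 14569 genes were called (0.233%) and in granule nuclei 390 of 15487 (2.52%). B2m in inhibitory nuclei had 5.74, 4.54, 8.27 and 4.68 CPM in fl EAE 1 to 4 and 15.2 to 39.5 CPM in the 4 NestinCre EAE samples, without overlap. On the log2 scale its difference was 2.27 ± 0.28 (SE; adjusted p = 0.00646) there and 2.89 ± 0.41 (adjusted p = 0.00504) in granule nuclei, beside 1.89 ± 0.26 in Slc17a6 nuclei. For H2-K1 the values in inhibitory and granule nuclei were 3.85 ± 0.43 and 3.91 ± 0.51. Ly86 had 0.79 ± 0.33 (adjusted p = 0.717) and 1.33 ± 0.33 (adjusted p = 0.0827).

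The difference of the genotype effect between Slc17a6 and inhibitory nuclei was called for 0 of 14857 genes (0%; edgeR, 648 at an unadjusted p under 0.05). Against granule nuclei it was called for 14 of 16014 genes (0.0874%), 7 in each direction, and none of the 15 genes called in Slc17a6 nuclei was among them. Of these 14, Arhgap15, a Rac regulator of blood cells (-2.20 ± 0.25, log2 and SE), Dock2, a Rac activator of blood cells (-1.55 ± 0.21), and Zbtb16, a zinc finger factor (-1.37 ± 0.21), had the most negative values. Their genotype effect was lower in Slc17a6 than in granule nuclei. Phagocyte markers summed to 209 to 310.3 CPM in granule nuclei of NestinCre EAE against 107 to 143 CPM in fl EAE, a wider gap than in Slc17a6 nuclei, and their part in these differences was not tested.

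**Figure D5:**
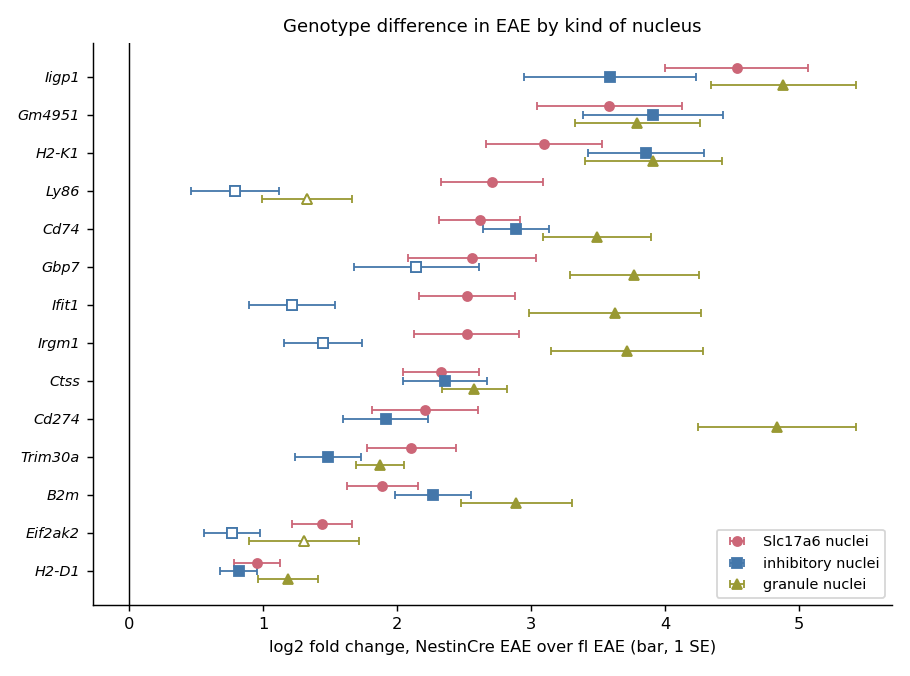
Log2 fold change of NestinCre EAE over fl EAE for 14 of the called genes in Slc17a6, inhibitory and granule nuclei; points are edgeR estimates, bars are standard errors, filled points have an adjusted p under 0.05 and open points do not. B2m lies between 1.89 and 2.89 in the 3 kinds, and Ly86 runs from 0.79 in inhibitory to 2.71 in Slc17a6 nuclei.

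Immunization itself was tested in the Il12rb2fl/fl mice, with the run as a term. Since run 3 holds no sample but fl naive 3 and NestinCre naive 2, the fitted level of fl naive came from fl naive 2 alone, and the spread was taken from the EAE groups. Of 14260 genes 2 were called (0.014%). Hsph1, of the HSP110 heat shock family, had 35.6, 35.0, 32.4 and 59.6 CPM in fl EAE 1 to 4 and 18.4 and 27.7 CPM in fl naive 2 and 3 (log2 fold change 1.59 ± 0.24, SE; adjusted p = 0.0391, edgeR). The groups did not overlap, and without the run term the value was 0.93 with an adjusted p of 0.598. In NestinCre EAE Hsph1 stood at 22.1 to 36.9 CPM and in NestinCre naive 2 at 15.1 CPM. Fgf1, a fibroblast growth factor, had 102, 104, 100.2 and 122 CPM in fl EAE 1 to 4 and 234 and 122 CPM in fl naive 2 and 3 (-1.08 ± 0.15, SE; adjusted p = 0.0266). Sample fl naive 2 stood apart, fl naive 3 was level with fl EAE 4, and without the run term the value was -0.74 with an adjusted p of 0.487. Run 2 is the sole run that holds samples of both groups, 1 of each, and the values there were 1.70 for Hsph1 and -0.94 for Fgf1, with no test. Without fl EAE 1 or fl EAE 2, 0 genes were called, and without NestinCre EAE 2 or 4, which share the fit, 1 was. B2m did not pass the test (0.64 ± 0.58). Of 8 inflammatory genes tested 7 had positive values, with a median of 1.49 beside 0.000388 over all genes. The median was -0.09 over 37 interferon-stimulated genes and 0.17 over 18 axon injury genes, 14 of them positive. All 7 oligodendrocyte markers were negative (median -0.58), and 15 of 19 GABA and glycine receptor genes were positive (median 0.17). The filter took a gene that reached its level in 1 sample of any group. List members could thus enter through NestinCre EAE, outside this contrast, so these counts and medians are no evidence of direction.

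In mice without immunization 1 of 14260 genes was called between the genotypes (0.00701%), in a fit that sets NestinCre naive 2 against fl naive 3, the single libraries of run 3, and takes the spread from the other groups. C1ql3, a secreted synaptic protein of the complement C1q family, had 11.3 CPM in fl naive 2, 59.0 CPM in fl naive 3 and 11.4 CPM in NestinCre naive 2 (log2 fold change -2.30 ± 0.28, SE; adjusted p = 0.00446, edgeR). Only fl naive 3 stood apart, the sample with the highest Hox-positive share, and C1ql3 was higher in Hox-positive nuclei by 1.07 ± 0.20. The part of that share in the value was not tested. Whether the genotype effect differed between EAE and naive mice, which rests on the same pair of naive libraries, was called for 0 of 14260 genes (0%; edgeR, 853 at an unadjusted p under 0.05, and 1 by DESeq2). For Eif2ak2 that difference was 1.96 ± 0.48 (adjusted p = 0.322). Of 37 interferon-stimulated genes tested 29 had positive values, with a median of 1.02 beside 0.0027 over all genes. Of 8 inflammatory genes tested 7 were positive, with a median of 1.87. Over all genes, 7172 of 14260 were positive. Other lists had uneven signs as well. Positive were 10 of 12 immediate early genes (median 0.89), 16 of 18 axon injury genes (0.46), 18 of 24 neuropeptide genes (0.60) and 15 of 17 Hox genes (0.65). Of 19 GABA and glycine receptor genes 14 were negative (-0.17). The Hox-positive share was highest in fl naive 3, and its part in the values of the Hox genes was not tested. The filter took a gene at its level in 1 sample of any group, so these counts and medians are no evidence of direction.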

How the data were processed

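Nuclei of 11 samples had been sorted on Hoechst signal and sequenced with 10x Genomics 3' chemistry. The deposited matrices hold raw UMI counts per gene and barcode, made by the authors with Cell Ranger (6.0.2 in the submitters' processing notes, and 7.0.0 or 6.0.2 in the file headers, by run) against GRCm39 with intronic reads counted. No count had been normalized, and replicates were deposited separately. From these counts, the steps given at the start of the results selected the nuclei, and no cell typing or doublet caller was used (the 5% deepest nuclei were left out as an alternative).

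Counts of the selected nuclei were summed per sample, since nuclei are not replicates, and tested with edgeR 4.0.16 (R 4.3.3): TMM scaling, filterByExpr by group, quasi-likelihood F test, run as a term, Benjamini-Hochberg adjustment over all genes tested, threshold 0.05. The genotype comparison used the 8 EAE samples, and the comparisons with naive mice used all 11. The comparison of Hox classes had the sample as a block. Fold changes are NestinCre over fl, EAE over naive or Hox-positive over Hox-negative. Levels are CPM of the summed counts. Shares were compared by exact permutation (scipy 1.17.1). DESeq2 1.42.0, other size factors, no filter, each replicate left out, other thresholds for nuclei, no run term, run 1 alone and a replicate block were alternatives, and leaving out nuclei with a UMI of 11 phagocyte genes was added after the data were seen. The fits were tested on simulated counts with 1 spread for all genes, no run effect and changes only in genes above 10 CPM. Called genes under that level were not covered. The paper gives 4 male mice of each genotype at EAE onset, while the labels say of replicates only that they are separate samples. P-values measure the spread between these samples. The summed counts held 1982875 to 7265087 UMIs per sample.

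The selection rule and the gene lists were chosen with earlier results of these data known. Named were, per comparison, up to 12 called genes in each direction with the largest fold change among those with at least 10 CPM in the higher group, every called member of a list, for lists without calls the 2 most abundant members and the 2 of smallest p (examples are given here), and the 6 most abundant factors of each regional group. Granule nuclei were planned at 1% of UMIs in the 4 granule genes, which left 13 to 36 nuclei per sample, so at least 0.2% was used instead. Gene positions came from GENCODE M39 and promoter windows from RefSeq (GRCm38.p6). Some genes are not reported here.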

Additional observations from a re-analysis of the deposited data

Results flagged for a closer look

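In 90 groups of 4 samples tested for a stray sample 11 were flagged, and chance flags about 1 in 20. Sample fl EAE 3 stood above the other fl EAE samples for 4 of the genes called between genotypes, with 1.84 CPM of Iigp1, 2.29 CPM of Gm4951, 3.21 CPM of Gbp7 and 2.52 CPM of Ifit1. It also had the highest share of Slc17a6 nuclei with a phagocyte UMI among the fl EAE samples, at 14.8%, and the part of that in these levels was not tested. Sample fl EAE 4, which had the lowest Hox-positive share, stood apart for 3 regional factors, with Pax6 at 5.96 CPM and En2 at 3.79 CPM below the others and Pax5 at 13.5 CPM above them. In NestinCre EAE, sample 4 stood apart for Hoxb6 at 21.1 CPM, Meis2 at 430.4 CPM and Tcf4 at 332 CPM, and sample 1 for Hoxb3 at 34.9 CPM.

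The genotype effect of 14 genes differed between Slc17a6 and granule nuclei (edgeR, adjusted p under 0.05). It was lower in Slc17a6 nuclei for Arhgap15 by a log2 difference of -2.20, Dock2 of -1.55, Zbtb16 of -1.37, Lrmda of -1.07, Skap2 of -1.04, Gab2 of -0.73 and Fgf1 of -0.52. It was higher for Col27a1 by 1.09, Kcnip1 by 0.78, Denn2b by 0.57, Gpc6 by 0.56, Fstl4 by 0.53, Gabrb1 by 0.49 and Kcnq3 by 0.48.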

How the results depend on the processing

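The share of Slc17a6 nuclei and the Hox-positive share had no settled direction by genotype. In run 1 alone the differences were -0.137 and -2.02 percentage points, and with single samples left out they ran from -0.0994 to 0.245 and from -2.24 to 4.69. Genes called between genotypes in EAE numbered 93 with no filter on low counts, 1 with at least 4 Slc17a6 UMIs per nucleus, 5 without nuclei with a phagocyte UMI, 17 by DESeq2 and 12 to 24 with single samples left out. For fl EAE against fl naive the numbers were 44, 1 and 0 for the first 3 of these, 0 without the run term and 0 to 6 with single samples left out. For the interaction they were 67, 3 and 2, with 1 by DESeq2, 1 without the run term and 0 to 4 with single samples left out. Hox classes gave 960 genes by DESeq2 and 668 with at least 4 Slc17a6 UMIs, and the genotype effect by Hox class 25 with no filter, 1 with at least 4 Slc17a6 UMIs and 1 without the deepest nuclei. The cause of these changes was not tested. Of the named genes none changed direction. In the genotype comparison 200 values kept their call and 38 lost it, between Hox classes 887 and 24, and in fl EAE against fl naive 20 and 13, while Fgf1 moved to -0.94 in run 2 alone, with no test. With the replicate block, the genotype comparison called 18 genes, and the share differences of 0.112 and 1.19 percentage points had p = 0.75 and p = 0.875 (exact sign flips, smallest possible p 0.125). Deviations of same-numbered samples correlated by -0.0729, 0.0892 and 0.0384 for numbers 1 to 3 and by 0.136 for the pair in run 2, and 4 of 8 samples correlated best with their own number. Samples 1 to 3 share only a number, and the EAE samples of run 2, whose titles carry none and which were numbered 4 in accession order, share the run. With the run as a term, the comparison of fl EAE with fl naive was not run without either fl naive sample, nor the interaction without any naive sample.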

Other observations

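Over all barcodes of a library, Nes, the gene whose promoter drives Cre, was counted with 5, 2, 8 and 6 UMIs for fl EAE 1 to 4, 2 and 3 UMIs in fl naive 2 and 3, 39, 48, 36 and 84 UMIs in NestinCre EAE 1 to 4 and 74 UMIs in NestinCre naive 2. Gh, the growth hormone gene, was counted with 0, 0, 0 and 48 UMIs for fl EAE 1 to 4, 32 and 0 UMIs in fl naive 2 and 3, 72, 109, 54 and 238 UMIs in NestinCre EAE 1 to 4 and 40 UMIs in NestinCre naive 2. Both genes were chosen after their values were seen. For Nes the 5 NestinCre libraries lay above all 6 fl libraries, while for Gh fl EAE 4, of run 2, had more UMIs than NestinCre naive 2 but fewer per 1000000 UMIs (0.596 against 0.667). In Slc17a6 nuclei Nes had 0 or 1 UMI per sample and Gh 0 to 6.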
